A study of Mus musculus with 16 samples.

Results

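The 10 genes that are commonly read as astrocyte genes, Gfap, Aqp4, Slc1a2, Slc1a3, Aldh1l1, Gja1, Gjb6, Glul, Agt and Slc6a11, were followed through RNA-seq libraries of whole mouse hypothalamus. They were chosen by name, and all 10 were found among the 55401 genes of the files. All 10 also passed the filter on low expression (over 1 CPM, the count scaled to the library's total, in 1 or more libraries), which left 15808 genes for testing. The study compared mice with a global deletion of the acid-sensing ion channel ASIC1a (ASIC1a-/-) with wild-type (WT) mice at 2 Zeitgeber times (ZT), ZT13, soon after lights off, and ZT1, soon after lights on. The 4 groups were ASIC1a-/- at ZT13, WT at ZT13, ASIC1a-/- at ZT1 and WT at ZT1, each of 4 male mice aged 3 months. Both genotypes were on a C57BL/6 background, came from breeding of heterozygous animals and were kept under a 12 h light and 12 h dark cycle. The deletion is carried by the whole animal and is not limited to a cell type, and the tissue holds neurons, all glial classes, ependymal cells, tanycytes and vessels together. In such bulk tissue, fewer cells of a type and less RNA per cell cannot be told apart.

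Astrocytes take up the glutamate and GABA that neurons release, turn glutamate into glutamine, buffer potassium and water at their endfeet on blood vessels, and are joined to each other by gap junctions. In the hypothalamus they also take part in the sensing of nutrients and hormones, and the astrocytes of the suprachiasmatic nucleus keep circadian time of their own. Several of the 10 genes are not exclusive to astrocytes. Gfap and Slc1a3 are also expressed by tanycytes, Glul by oligodendrocytes, and Gja1 and Gjb6 by ependymal or meningeal cells.

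The deleted gene was read first. At ZT13 the CPM of Asic1 averaged 71.0 ± 0.81 in the ASIC1a-/- group, against 99.2 ± 2.20 in the WT group. At ZT1 it averaged 67.4 ± 2.41 in the ASIC1a-/- group, against 104 ± 1.98 in the WT group (SD, n = 4 each). Its remaining reads were assigned to shorter transcripts in ASIC1a-/- mice, with a mean length of 1819 bp against 3060.0 bp at ZT13, so that its TPM (a transcript level that also divides by length) was higher there, 82.7 ± 1.21 against 66.0 ± 4.51. The total count per library was 34888522 to 42326259. The neuron, oligodendrocyte, microglia, endothelial, ependymal and tanycyte marker lists were all detected, and no marker of these 6 lists was at 0 in any library. In 3 libraries, a marker list or a gene stood apart. The 8 meningeal markers summed to 149 TPM in ASIC1a-/- ZT13 replicate 2 and to 269 TPM in ASIC1a-/- ZT1 replicate 4, against 36.1 to 78.4 TPM in the other 14 libraries, with no meningeal marker at 0 in any library. WT ZT13 replicate 1 had the highest Gfap of all libraries. Where leaving out these libraries changed a call or a direction, or clearly moved a value described here, the value without them is given beside it.

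Because the time of day changed Glul, Gja1 and Slc6a11, as described later, the sequence upstream of these 3 genes is shown, as 250 bases that end at the base before the RefSeq transcription start (build GRCm38.p6, gene strand). Of the 10 genes, 9 were matched in the RefSeq table (Aqp4 was not). In all, 6 motifs were searched on both strands: the E-box CACGTG bound by clock proteins, the AP-1 motif TGANTCA, the glucocorticoid receptor core AGAACA, the NFI core TTGGCA, the SOX motif ACAAAG and the cAMP response element core TGACG. Matches are in capitals. They lie at chr1:153899679-153899928 for Glul, at chr10:56377050-56377299 for Gja1 and at chr6:114130991-114131240 for Slc6a11, all on the plus strand.
Glul: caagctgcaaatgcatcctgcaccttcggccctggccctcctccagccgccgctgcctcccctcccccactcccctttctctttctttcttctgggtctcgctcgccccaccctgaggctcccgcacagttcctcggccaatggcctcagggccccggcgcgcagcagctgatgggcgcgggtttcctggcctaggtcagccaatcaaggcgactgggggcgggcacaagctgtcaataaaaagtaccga
Gja1: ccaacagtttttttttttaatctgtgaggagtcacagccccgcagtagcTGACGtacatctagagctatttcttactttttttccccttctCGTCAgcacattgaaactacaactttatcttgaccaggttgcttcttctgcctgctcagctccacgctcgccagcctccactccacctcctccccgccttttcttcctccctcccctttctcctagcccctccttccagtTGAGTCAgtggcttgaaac
Slc6a11: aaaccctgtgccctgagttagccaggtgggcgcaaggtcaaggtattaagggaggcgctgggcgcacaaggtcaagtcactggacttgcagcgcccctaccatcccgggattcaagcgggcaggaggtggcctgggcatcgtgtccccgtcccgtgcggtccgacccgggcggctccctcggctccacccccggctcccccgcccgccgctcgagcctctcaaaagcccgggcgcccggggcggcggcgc

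Within these letters Gja1 held an AP-1 motif that starts 19 bases upstream and cAMP cores at 201 and 159 bases upstream, whereas Glul and Slc6a11 held none of the 6 motifs. Of the other 6 matched genes, Slc1a3 had a glucocorticoid receptor core 24 bases and a cAMP core 13 bases upstream, and Gfap, Slc1a2, Aldh1l1, Gjb6 and Agt had no match. Over all 32851 promoters of the same length, the E-box was found in 6.02%, the AP-1 motif in 6.75%, the glucocorticoid receptor core in 16.1%, the NFI core in 12.3%, the SOX motif in 16.5% and the cAMP core in 17.8%. A match describes the letters only.

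The 10 genes were among the well expressed genes of the tissue. Expressed per length, Glul, which encodes glutamine synthetase, had the highest level with 1068 ± 82.0 TPM (SD over 16 libraries), more than 99.6% of the tested genes. The GABA transporter gene Slc6a11 had 482 ± 16.1 TPM, and the glutamate transporter gene Slc1a3 had 360.2 ± 11.9 TPM. Agt, which encodes angiotensinogen, had 305 ± 9.46 TPM, and the second glutamate transporter gene, Slc1a2, had 251 ± 10.5 TPM. The filament gene Gfap had 183 ± 23.6 TPM and the gap junction gene Gja1 had 181 ± 12.2 TPM. The other gap junction gene, Gjb6, ranged from 83.9 to 132 TPM, the water channel gene Aqp4 had 77.7 ± 7.03 TPM, and Aldh1l1, the gene of a folate enzyme, had 48.6 ± 1.87 TPM, still above 75.5% of the tested genes.

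This order was the same in each of the 16 libraries with 1 exception. Gfap was above Gja1 in 7 libraries and below it in 9, so these neighbours were not separated. The ranges of Slc1a2 and Gfap and of Gjb6 and Aqp4 overlapped between libraries, although the order held within each library. Counted as reads, without length, the order differs, since Slc1a2 transcripts are on average 11415 bp long and take the most reads of the 10 genes (1466 CPM).

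The genes differed in how much they varied between mice of 1 group. The within-group SD of log2 CPM was 0.18 for Gfap, larger than for 99.4% of the 3359 genes that were at least as highly expressed. It was 0.13 for Aqp4 and 0.11 for Gjb6, larger than for 98.4% and 97.0% of these genes. The transporter genes Slc1a3 and Slc6a11 were at the other end, with 0.03 for each, larger than for 6.13% and 9.44% only. The transporter gene Slc1a2 had 0.06, larger than for 75.6%. The median of the 3359 genes was 0.04. Comparisons of Gfap, Aqp4 and Gjb6 are thus less precise than those of the transporters and enzymes.

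**Figure D1:**
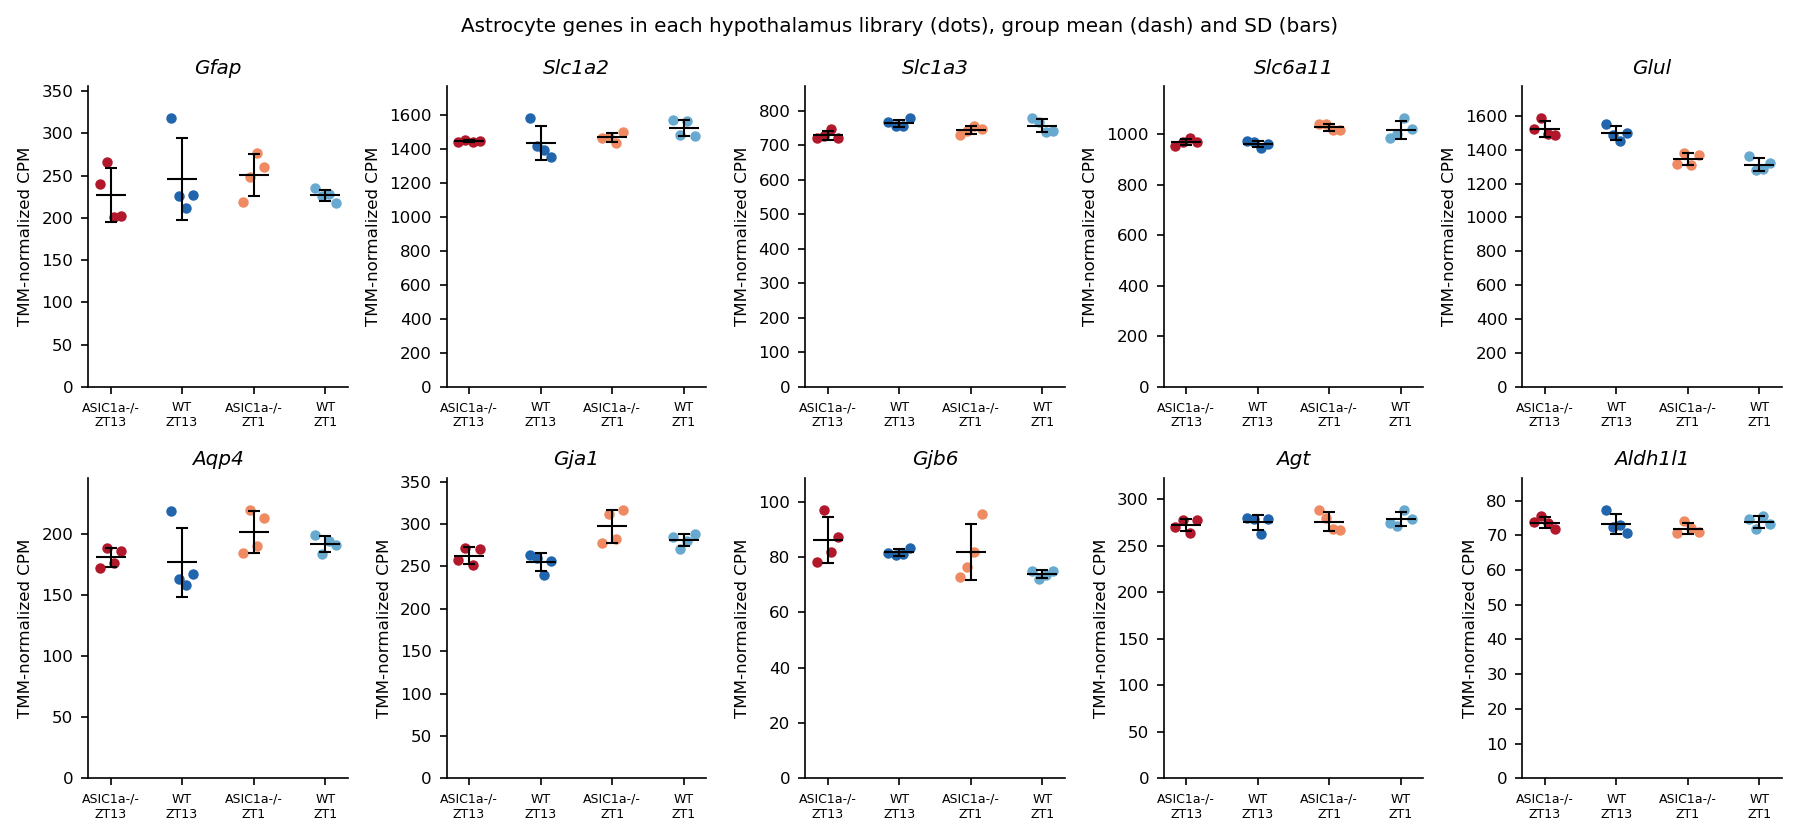
TMM-normalized CPM (vertical axes, from 0) of the 10 astrocyte genes in each library (dots), with the mean (dash) and SD (bars) of the 4 mice of each group. Glul was higher, and Gja1 and Slc6a11 lower, at ZT13 than at ZT1 in both genotypes without overlap, and the dot at 318 CPM for Gfap is WT ZT13 replicate 1.

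The first comparison asked how these genes differ between early night and early day within each genotype. At ZT13 compared with ZT1, 3 of the 10 genes changed past an adjusted p of 0.05, and they were the same 3 in both genotypes: Glul was higher, and Gja1 and Slc6a11 were lower. Over all tested genes, 11.3% passed in ASIC1a-/- mice (6.72% higher and 4.62% lower) and 13.3% in WT mice (7.52% higher and 5.76% lower). The median log2 fold change of the 10 genes was -0.03 in ASIC1a-/- and -0.01 in WT mice, beside -0.01 and 0.00 over all tested genes. With both genotypes in 1 comparison, the same 3 genes passed, while 26.4% of all tested genes did (14.3% higher and 12.1% lower). The groups did not overlap in CPM for 3 of the 10 genes in ASIC1a-/- and for 4 of the 10 in WT mice, against 15.7% and 18.3% of all tested genes.

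Glul (ENSMUSG00000026473, chr1:153899944-153909723, plus strand, GRCm38), whose product makes glutamine from glutamate and ammonia, showed the clearest difference. In ASIC1a-/- mice it had 1521, 1585, 1490.2 and 1487 CPM at ZT13 and 1316, 1382, 1311 and 1371 CPM at ZT1. In WT mice it had 1552, 1484, 1454 and 1497 CPM at ZT13 and 1362, 1279.8, 1287 and 1319 CPM at ZT1. Every ZT13 library was thus above every ZT1 library, also across genotypes. The log2 fold change was 0.18 in ASIC1a-/- (SE 0.03, 95% interval 0.12 to 0.24, adjusted p = 0.000537) and 0.19 in WT mice (SE 0.03, 95% interval 0.13 to 0.25, adjusted p = 0.000287), which is 13.1% and 14.1% more. Over both genotypes it was 0.18 (SE 0.02, adjusted p = 3.41e-06). In TPM, Glul had 1161 ± 39.8 at ZT13 and 994 ± 22.2 at ZT1 in ASIC1a-/- mice, and 1119 ± 46.5 at ZT13 and 997 ± 16.8 at ZT1 in WT mice. By time, Glul passed in both genotypes under every one of the alternative analyses. The overlapping gene Teddm2 on the opposite strand had only 20 to 44 counts per library.

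Gja1 (ENSMUSG00000050953, chr10:56377330-56402513, plus strand), which encodes the main connexin of astrocyte gap junctions, was lower at ZT13. In ASIC1a-/- mice it had 257, 272, 252 and 270.1 CPM at ZT13 and 278, 311, 283 and 317 CPM at ZT1. In WT mice it had 263, 260.3, 239.9 and 257 CPM at ZT13 and 285, 271, 280.0 and 288 CPM at ZT1. The times did not overlap within either genotype. The log2 fold change was -0.18 in ASIC1a-/- (SE 0.04, 95% interval -0.26 to -0.09, adjusted p = 0.00964) and -0.14 in WT mice (SE 0.04, 95% interval -0.23 to -0.05, adjusted p = 0.0318), and -0.16 over both (SE 0.03, adjusted p = 0.000653). The WT call of Gja1 rested on the full set of mice. Its adjusted p was 0.0676 without WT ZT1 replicate 1, 0.0577 without replicate 3, 0.0920 without replicate 4, and 0.102 and 0.0654 without WT ZT13 replicates 3 and 4. Calculated from TPM, the log2(TPM + 1) fold change was -0.14 in each genotype, with adjusted p = 0.0553 in ASIC1a-/- and 0.0547 in WT mice.

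Slc6a11 (ENSMUSG00000030307, chr6:114131241-114249952, plus strand), which encodes the GABA transporter that is enriched in astrocytes, was lower at ZT13 by a smaller amount. In ASIC1a-/- mice it had 955, 969, 985 and 971 CPM at ZT13 and 1041, 1041, 1018 and 1016 CPM at ZT1. In WT mice it had 975, 969, 946 and 964 CPM at ZT13 and 987, 1000.5, 1064 and 1019.9 CPM at ZT1. The times did not overlap within either genotype, but the highest ZT13 value of ASIC1a-/- mice and the lowest ZT1 value of WT mice were close. On the log2 scale the difference was -0.09 in ASIC1a-/- (SE 0.02, adjusted p = 0.0202), -0.08 in WT mice (SE 0.02, adjusted p = 0.0263) and -0.08 over both (SE 0.02, adjusted p = 0.000999), about 5.56% less.

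The Slc6a11 calls within 1 genotype were close to the threshold. In ASIC1a-/- mice the adjusted p of Slc6a11 was 0.0528 and 0.0542 without ASIC1a-/- ZT1 replicates 1 and 2, 0.0684 without ASIC1a-/- ZT13 replicate 1, and 0.0626 without the 2 libraries high in meningeal markers. In WT mice it was 0.0866 and 0.0616 without WT ZT1 replicates 3 and 4, and 0.0638 and 0.0540 without WT ZT13 replicates 3 and 4. On the log2(TPM + 1) scale the fold change was -0.05 in ASIC1a-/- (adjusted p = 0.320) and -0.08 in WT mice (adjusted p = 0.107).

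**Figure D2:**
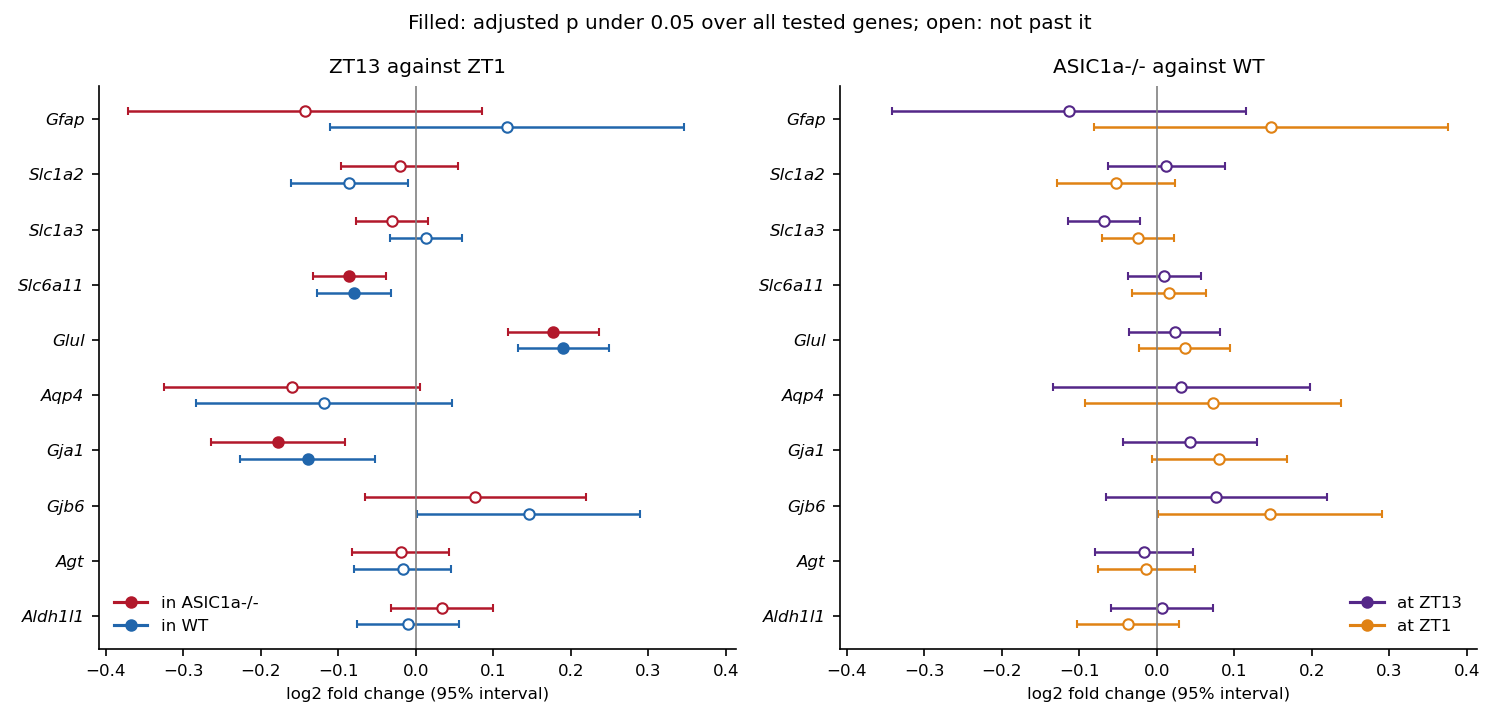
Log2 fold changes (horizontal axes) of the 10 astrocyte genes with 95% intervals (bars), for ZT13 against ZT1 in ASIC1a-/- and in WT mice (left) and for ASIC1a-/- against WT at ZT13 and at ZT1 (right). Filled points passed an adjusted p of 0.05 and were Glul, Gja1 and Slc6a11, by time only.

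Of the remaining 7 genes, none passed by time. Gjb6 (ENSMUSG00000040055, chr14:57123303-57133611, minus strand), the second connexin gene of astrocytes, differed from Gja1 in direction. In ASIC1a-/- mice Gjb6 had 78.4, 97.1, 82.0 and 87.3 CPM at ZT13 and 72.9, 76.3, 82.0 and 95.8 CPM at ZT1. In WT mice it had 81.3, 80.7, 81.3 and 83.5 CPM at ZT13 and 75.1, 72.0, 73.4 and 74.9 CPM at ZT1. The WT groups did not overlap, whereas those of ASIC1a-/- mice did. The log2 fold change was 0.08 in ASIC1a-/- (95% interval -0.07 to 0.22, adjusted p = 0.509), 0.15 in WT mice (95% interval 0.00 to 0.29, adjusted p = 0.178) and 0.11 over both (adjusted p = 0.0978).

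In CPM, the highest Gjb6 values belonged to the 2 libraries with the most meningeal marker RNA, ASIC1a-/- ZT13 replicate 2 and ASIC1a-/- ZT1 replicate 4. In TPM, ASIC1a-/- ZT13 replicate 2 was again highest (132 TPM). ASIC1a-/- ZT1 replicate 4 had 103 TPM, below several other libraries. The part of meningeal RNA in these Gjb6 values was not tested. Without both libraries, the log2 fold change of Gjb6 was 0.15 in WT mice (adjusted p = 0.0189) and 0.12 over both genotypes (adjusted p = 0.00580), which passed. No WT library was left out here, and the WT value of 0.15 was the same as with all libraries. Its adjusted p comes from a fit in which the 4 groups share 1 estimate of spread per gene. In ASIC1a-/- mice the value of Gjb6 was then 0.10 (adjusted p = 0.181). The 2 libraries moved it in opposite directions when left out singly. Without ASIC1a-/- ZT13 replicate 2 the log2 fold change of Gjb6 was 0.01 in ASIC1a-/- mice (adjusted p = 0.917) and 0.08 over both genotypes (adjusted p = 0.204). Without ASIC1a-/- ZT1 replicate 4 it was 0.16 in ASIC1a-/- mice (adjusted p = 0.0760) and 0.15 over both genotypes (adjusted p = 0.00620). Gjb6 was also the gene whose length moved most with time. The mean transcript length that RSEM assigned to Gjb6 was 1661 ± 62.6 bp at ZT13 and 1768 ± 107 bp at ZT1 in ASIC1a-/- mice, and 1663 ± 79.3 bp at ZT13 and 1754 ± 74.1 bp at ZT1 in WT mice. The ranges overlapped between the times. The change in TPM was larger than in CPM, with 0.22 over both genotypes on the log2(TPM + 1) scale (adjusted p = 0.00898).

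**Figure D3:**
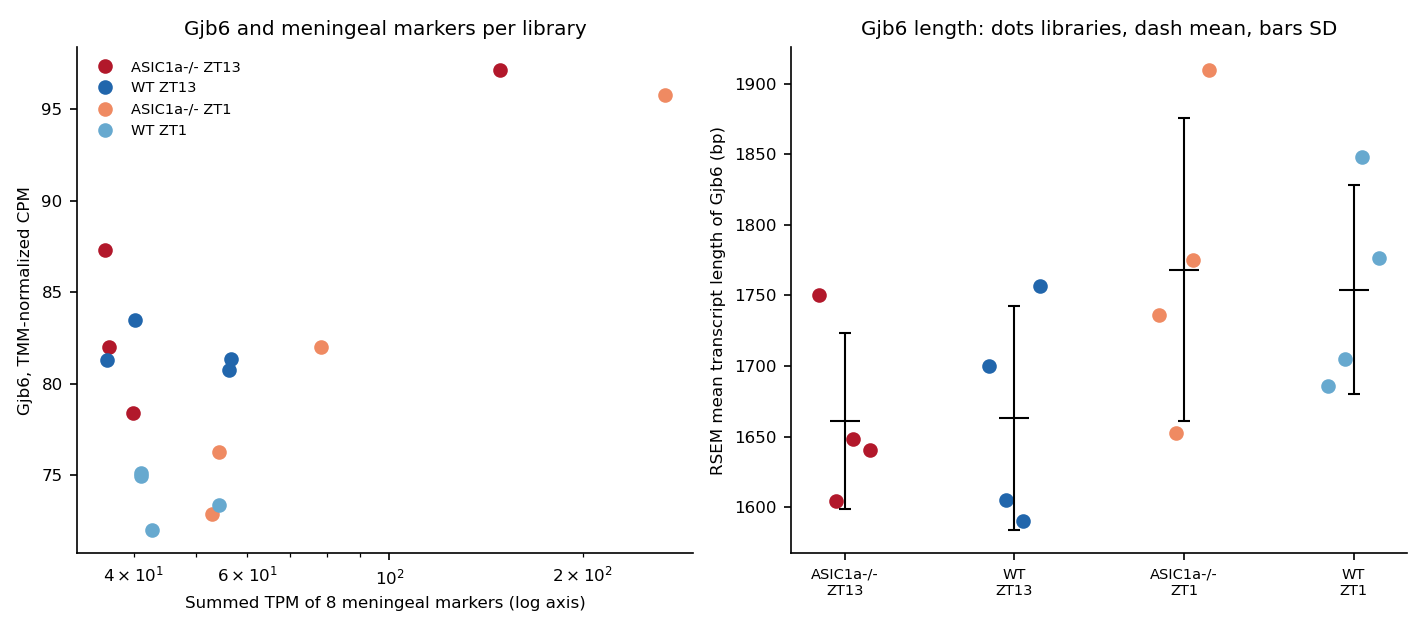
Left, TMM-normalized CPM of Gjb6 (vertical axis, not from 0) against the summed TPM of 8 meningeal markers (log axis), 1 point per library, with the 2 libraries at 149 and 269 TPM at the upper right. Right, mean transcript length of Gjb6 assigned by RSEM (bp, axis not from 0) per library, with group mean (dash) and SD (bars), lower on average at ZT13.

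Aqp4 (ENSMUSG00000024411, chr18:15389496-15410982, minus strand) encodes the water channel of astrocyte endfeet. It had 172, 189, 176 and 186 CPM at ZT13 and 184, 219.7, 189.9 and 213 CPM at ZT1 in ASIC1a-/- mice, and 218, 163, 158 and 167 CPM at ZT13 and 199, 183, 194 and 191 CPM at ZT1 in WT mice. In WT mice, 3 of the 4 ZT13 values lay below all ZT1 values, and replicate 1 lay above them. Aqp4 had a log2 fold change of -0.16 in ASIC1a-/- (adjusted p = 0.205), -0.12 in WT mice (adjusted p = 0.357) and -0.14 over both (95% interval -0.26 to -0.02, adjusted p = 0.0731). Without WT ZT13 replicate 1, Aqp4 passed in ASIC1a-/- (-0.16, adjusted p = 0.0447), in WT mice (-0.24, adjusted p = 0.00891) and over both (-0.20, adjusted p = 0.000754). Leaving out the highest ZT13 value of WT mice lowers the WT difference by itself, so these calls are not a separate test. The ASIC1a-/- value stayed at -0.16, since no library of that genotype was left out and the 4 groups share 1 estimate of spread. Aqp4 also passed over both genotypes without ASIC1a-/- ZT1 replicate 1 (adjusted p = 0.0471) and without a filter on low counts (adjusted p = 0.0347).

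Gfap (ENSMUSG00000020932, chr11:102887336-102900912, minus strand) encodes the intermediate filament protein that marks astrocytes and rises in reactive ones. It had 240.2, 266, 201 and 202 CPM at ZT13 and 218, 248, 277 and 259.9 CPM at ZT1 in ASIC1a-/- mice, and 318, 226, 212 and 227 CPM at ZT13 and 235, 226, 228 and 218 CPM at ZT1 in WT mice. All groups overlapped, and the WT ZT1 mice were the most alike. Between the times, Gfap differed by a log2 fold change of -0.14 in ASIC1a-/- (95% interval -0.37 to 0.09) and 0.12 in WT mice (95% interval -0.11 to 0.35), with adjusted p = 0.432 and 0.532. Without WT ZT13 replicate 1 the value of Gfap in WT mice was -0.03 (adjusted p = 0.856), so its direction there depended on this mouse.

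The glutamate transporter genes changed little. Slc1a2 (ENSMUSG00000005089, chr2:102658659-102790784, plus strand), the main glutamate transporter gene of the forebrain, had 1445 ± 5.61 CPM at ZT13 and 1466 ± 27.0 CPM at ZT1 in ASIC1a-/- mice, and 1433 ± 101 CPM at ZT13 and 1520.5 ± 48.9 CPM at ZT1 in WT mice. For ZT13 against ZT1 its log2 fold change was -0.02 in ASIC1a-/- (adjusted p = 0.758), -0.09 in WT mice (adjusted p = 0.132) and -0.05 over both (adjusted p = 0.135). WT ZT13 replicate 1 had 1579 CPM, against 1348 to 1414 CPM in the other 3 mice of its group. Without it Slc1a2 was lower at ZT13 in WT mice (-0.14, adjusted p = 0.00300) and over both genotypes (-0.08, adjusted p = 0.00347). Leaving out the highest Slc1a2 value of the group lowers the WT difference by itself. These Slc1a2 calls are thus not a separate test. Slc1a3 (ENSMUSG00000005360, chr15:8634124-8710764, minus strand) had a log2 fold change of -0.03 in ASIC1a-/- (95% interval -0.08 to 0.02) and 0.01 in WT mice (95% interval -0.03 to 0.06).

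Agt (ENSMUSG00000031980, chr8:124556534-124569706, minus strand) encodes the precursor of the angiotensins, which in the brain is made mainly by astrocytes. Aldh1l1 (ENSMUSG00000030088, chr6:90486427-90600203, plus strand) encodes a cytosolic folate dehydrogenase that is widely used as an astrocyte marker. Their values varied little, from 263 to 289 CPM for Agt and from 70.6 to 77.4 CPM for Aldh1l1 over all 16 libraries. The time change was -0.02 in both genotypes for Agt, and 0.03 in ASIC1a-/- and -0.01 in WT mice for Aldh1l1, with 95% intervals within -0.08 to 0.10 for both genes.

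The second comparison asked whether the deletion of ASIC1a changed these genes. None of the 10 genes passed at either time. At ZT13, 16 of 15808 tested genes passed (0.101%), and 591 (3.74%) had an unadjusted p under 0.05, as did 1 of the 10 genes. At ZT1, 2 tested genes passed (0.0127%), and 1107 (7.00%) had an unadjusted p under 0.05, again with 1 of the 10 genes. With both times in 1 comparison 10 genes passed (0.0633%) and none of the 10 astrocyte genes did, while 3 of them and 6.80% of all tested genes had an unadjusted p under 0.05. The tools DESeq2 and limma-voom likewise called 0 of the 10 genes in these 3 comparisons. The median log2 fold change of the 10 genes was 0.01 at ZT13 and 0.03 at ZT1, beside 0.00 over all tested genes at both times.

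The smallest p at ZT13 was that of Slc1a3. It had 720.0, 726, 747 and 719.8 CPM in ASIC1a-/- mice and 766, 754, 756 and 778 CPM in WT mice. All 4 ASIC1a-/- values lay below all 4 WT values. The groups likewise did not overlap for 2.58% of all tested genes. The log2 difference was -0.07 (SE 0.02, 95% interval -0.11 to -0.02, unadjusted p = 0.00606), and the adjusted p of 0.9997 did not pass. At ZT1 Slc1a3 had 730.4, 742, 757 and 747 CPM in ASIC1a-/- mice and 778, 769, 739.8 and 740.5 CPM in WT mice, with overlap and a log2 fold change of -0.02 (95% interval -0.07 to 0.02, adjusted p = 0.840).

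At ZT1 no gene of the 10 was without overlap between genotypes, against 2.92% of all tested genes. The smallest p was that of Gjb6, with a log2 fold change of 0.15 (95% interval 0.00 to 0.29, unadjusted p = 0.0470, adjusted p = 0.704), which included ASIC1a-/- ZT1 replicate 4. Without the 2 libraries high in meningeal markers the ZT1 value of Gjb6 was 0.06 (adjusted p = 0.921). Gja1 was 0.08 at ZT1 (95% interval -0.01 to 0.17) and 0.04 at ZT13 (95% interval -0.04 to 0.13). At ZT13 the Gjb6 value was 0.08 (adjusted p = 0.9997), and 0.02 without the same 2 libraries. For Gfap the intervals were wide, -0.34 to 0.12 around -0.11 at ZT13 and -0.08 to 0.38 around 0.15 at ZT1. Without WT ZT13 replicate 1, the library at 318 CPM, the ZT13 value of Gfap was 0.04, so its sign depended on this mouse.

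For the other genes the 95% intervals bound the size of a change that could have been missed. For Glul the ASIC1a-/- against WT interval was -0.04 to 0.08 at ZT13 and -0.02 to 0.09 at ZT1, and for Slc6a11 it was -0.04 to 0.06 at ZT13 and -0.03 to 0.06 at ZT1. Slc1a2, Aldh1l1 and Agt had intervals within -0.13 to 0.09 at both times. Aqp4 had -0.13 to 0.20 at ZT13 and -0.09 to 0.24 at ZT1, and without WT ZT13 replicate 1 its ZT13 value was 0.15 in place of 0.03 (adjusted p = 0.9994), and that of Slc1a2 was 0.06 in place of 0.01. The interaction term, which tests whether the time change differs between the genotypes, passed for none of the 10 genes, and for 0.0190% of all tested genes. Its adjusted p was 0.9997 for each of the 10. The largest difference was that of Gfap, -0.26 (95% interval -0.58 to 0.06, unadjusted p = 0.107), and without WT ZT13 replicate 1 it was -0.11. Without the same library the interaction value was 0.08 for Aqp4, against -0.04 with it, and 0.12 for Slc1a2, against 0.06 with it.

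Other genes of astrocytes were read from a list of 40, all of which passed the filter. By time, 13 of them passed in ASIC1a-/- mice (2 higher and 11 lower) and 15 in WT mice (3 higher and 12 lower), 12 of which were shared with the same direction. These are 32.5% and 37.5% of the list, beside 11.3% and 13.3% of all tested genes. The median log2 fold change was -0.06 in ASIC1a-/- and -0.05 in WT mice. Fabp7, which encodes the brain fatty acid-binding protein of glia, showed the strongest change, with means of 14.7 CPM at ZT13 and 44.4 CPM at ZT1 in ASIC1a-/- mice, and 15.5 CPM at ZT13 and 47.1 CPM at ZT1 in WT mice. On the log2 scale this was -1.59 in ASIC1a-/- (SE 0.06, adjusted p = 6.31e-12) and -1.60 in WT mice (SE 0.06, adjusted p = 5.67e-12). Etnppl, which encodes a phosphoethanolamine lyase, was higher at ZT13, by 0.43 in ASIC1a-/- and 0.52 in WT mice on the log2 scale. Fgfr3, a fibroblast growth factor receptor gene, was higher by 0.27 in ASIC1a-/- and 0.25 in WT mice. Mfge8, which encodes a secreted bridging protein for phagocytosis, was lower (-0.16 in ASIC1a-/- and -0.19 in WT mice). By genotype, 0 of the 40 genes passed at ZT13 or ZT1. There 1 and 5 of them had an unadjusted p under 0.05, beside 3.74% and 7.00% of all tested genes.

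**Figure D4:**
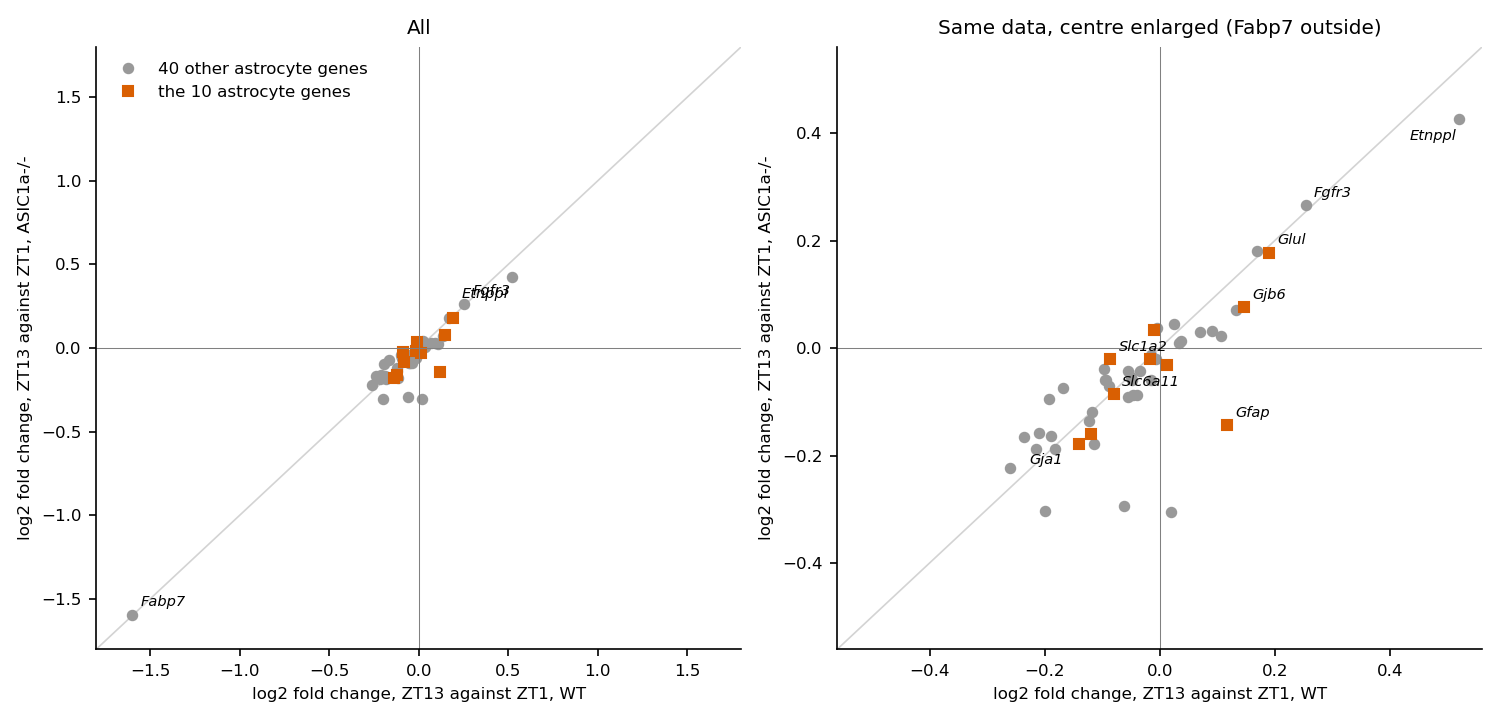
Log2 fold change of ZT13 against ZT1 in ASIC1a-/- mice (vertical axes) and in WT mice (horizontal axes) for the 10 astrocyte genes (squares) and the 40 other astrocyte genes (circles), with the line of equal change. The right panel enlarges the centre of the left one, where Glul lies at 0.18 and 0.19 and Gfap, at -0.14 and 0.12, lies off the line.

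The genes that share a pathway with the 10 were read next, for ZT13 against ZT1 over both genotypes. Around glutamate and GABA, 3 of 17 other genes passed, 1 higher and 2 lower, with a list median of -0.04. This was 17.6% of the list, below the 26.4% of all tested genes that passed in this comparison. Slc38a3, whose product releases glutamine from astrocytes, was lower (-0.19, adjusted p = 1.62e-05), and Slc38a2, which encodes another glutamine carrier, was higher (0.39, adjusted p = 0.000476). Abat, the gene of GABA transaminase, was lower (-0.05, adjusted p = 0.0384). Slc38a3 thus moved in the opposite direction to Glul. The median over all tested genes was 0.00.

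Of the other connexin and pannexin genes, 9 of 10 were tested and 4 were lower at ZT13, with a list median of -0.23, a share of 44.4% beside the 26.4% of all tested genes. Among them, Gjb1 (-0.47, adjusted p = 1.82e-05) and Gjc3 (-0.23, adjusted p = 0.000367) are connexin genes of oligodendrocytes, the partners of astrocytes in gap junctions between the 2 cell types. Panx2, a pannexin gene, was lower by a small amount (-0.09, adjusted p = 0.0224). Beside this, the 10 oligodendrocyte markers summed to 4999 to 5454 TPM at ZT13 and 4809.9 to 6120.2 TPM at ZT1 in ASIC1a-/- mice, and to 4778 to 5399 TPM at ZT13 and 5038 to 5214 TPM at ZT1 in WT mice, and their part in these changes was not tested.

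Of 10 tested genes of the endfoot complex that holds Aqp4 at vessels, and of related channels, 2 passed (20%, beside 26.4% of all tested genes). The glycerol channel gene Aqp9 was lower at ZT13, with 1.37 ± 0.31 CPM at ZT13 and 3.01 ± 0.32 CPM at ZT1 in ASIC1a-/- mice, and 1.61 ± 0.20 CPM at ZT13 and 2.86 ± 0.32 CPM at ZT1 in WT mice (log2 fold change -0.98 over both, adjusted p = 6.90e-06). The dystrophin gene Dmd was slightly higher (0.07, adjusted p = 0.0351). The genes of the anchoring proteins Dag1 and Dtna did not pass.

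Among the intermediate filament genes and genes that rise in reactive astrocytes, 17 of 23 were tested. None was higher and 3 were lower at ZT13 over both genotypes (17.6%, beside 26.4% of all tested genes), namely S1pr3, a sphingosine phosphate receptor gene (-0.33, adjusted p = 0.000176), the heat shock gene Hspb1 (-0.41, adjusted p = 0.0315) and Aspg (-0.60, adjusted p = 0.0321). Cd109 passed in ASIC1a-/- mice only (-0.42, adjusted p = 0.0243), and its difference between genotypes did not pass. By genotype, 15 of the 17 values were above 0 at ZT1 and 10 at ZT13, but 0 passed at either time. At ZT1 3 of the 17 and at ZT13 1 had an unadjusted p under 0.05, beside 7.00% and 3.74% of all tested genes. The whole list summed to 336 TPM in ASIC1a-/- ZT13 replicate 2 and 357 TPM in ASIC1a-/- ZT1 replicate 4, the libraries high in meningeal markers, against 246 to 295 TPM in the other 14 libraries. Without these 2 libraries 13 of the 17 values were above 0 at ZT1 and 4 at ZT13, with a list median of 0.04 at ZT1 in place of 0.17, and of -0.08 at ZT13 in place of 0.03.

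Of the renin-angiotensin genes around Agt, 10 of 12 were tested, and neither genotype alone gave a call. Over both genotypes Ace, the gene of the converting enzyme, was higher (0.08, adjusted p = 0.0287), and Enpep (-0.32, adjusted p = 0.0358) and Ctsd (-0.06, adjusted p = 0.0401), which encode peptidases, were lower. These 3 are 30% of the tested list, beside 26.4% of all tested genes, with all libraries in the fit. Without the 2 libraries high in meningeal markers 1 of 9 tested genes passed. The share of all tested genes that passed in that fit is not given here. Enpep was expressed at a low level, 1 to 1.8 TPM. The renin gene Ren1 had at most 0.11 TPM in any library. Of 12 folate and one-carbon genes around Aldh1l1, 3 were higher, Mthfd1l (0.25, adjusted p = 0.00109), Psat1 (0.12, adjusted p = 0.00457) and Shmt1 (0.62, adjusted p = 0.0249), and Psph was lower (-0.13, adjusted p = 0.0417), in all 33.3% of the list. Shmt1 was expressed at a low level, 0.46 to 2.02 TPM.

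In astrocyte energy metabolism, 1 of 15 genes was higher and 3 were lower at ZT13, 26.7% of the list and close to the 26.4% of all tested genes. The glucose transporter gene Slc2a1, which is also a main gene of the endothelium of brain vessels, had the clearest change (0.29, adjusted p = 1.31e-07), with 92.8 ± 4.19 CPM at ZT13 and 74.6 ± 1.83 CPM at ZT1 in ASIC1a-/- mice, and 91.1 ± 1.64 CPM at ZT13 and 75.5 ± 2.45 CPM at ZT1 in WT mice. Beside this, 2 of 10 endothelial markers were higher and 4 lower at ZT13 over both genotypes. They summed to 164 to 193 TPM at ZT13 and 151 to 174 TPM at ZT1 in ASIC1a-/- mice, and to 157 to 169 TPM at ZT13 and 152 to 175 TPM at ZT1 in WT mice, and their part in the Slc2a1 change was not tested. The monocarboxylate transporter genes Slc16a3 (-0.45, adjusted p = 0.000390) and Slc16a1 (-0.17, adjusted p = 0.00295) and the fatty acid oxidation gene Hadhb (-0.07, adjusted p = 0.0296) were lower. As a check of the sampling times, 12 of 15 clock genes were higher and Arntl was lower at ZT13, with a list median of 0.20. Of 14 glucocorticoid-responsive genes 11 were higher and 0 lower, with a median of 0.46, and 3 of them were also higher in ASIC1a-/- than in WT mice at ZT13, as were 0.0822% of all tested genes.

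Finally, the 10 genes were compared with each other across mice, after the mean of each group had been taken from log2 CPM. Of 45 pairs, 36 had a Pearson's r above 0, with a median of 0.26, but 0 pairs passed after adjustment over the 45, by Pearson's r or by Spearman's rho (two-sided permutation tests within groups, 100000 resamples). The highest r was that of Aqp4 and Slc1a2, 0.81 (p = 0.0169, adjusted p = 0.121; rho = 0.71, p = 0.00404, adjusted p = 0.0606), and it was 0.61 without the 2 libraries farthest from the median. Aqp4 and Glul had r = 0.73 (permutation p = 0.00178, adjusted p = 0.0801) and rho = 0.73 (permutation p = 0.00384, adjusted p = 0.0606), and r was 0.66 without the 2 farthest libraries. Gja1 and Glul had r = 0.73 (permutation p = 0.00822, adjusted p = 0.121) and rho = 0.75 (permutation p = 0.00588, adjusted p = 0.0661), and 0.67 without the 2 farthest. Glul and Gja1 thus had a positive r between mice of 1 group, while they changed in opposite directions with time. The lowest r was that of Slc1a3 and Agt, -0.53 (permutation p = 0.0514, adjusted p = 0.193).

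WT ZT13 replicate 1 carried part of this pattern, since 9 of the 10 genes were above their group mean there, by 0.11 on average on the log2 scale. Without this library, and with group means taken again, r fell to 0.40 for Aqp4 and Slc1a2. For Gfap and Aqp4 it fell to 0.28, against 0.81 and 0.70 with the library. Without the library r was 0.72 for Aqp4 and Glul and 0.90 for Aqp4 and Gja1, against 0.73 and 0.70 with it. In the same group, WT ZT13 replicate 3 had 0 of the 10 genes above the group mean.

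**Figure D5:**
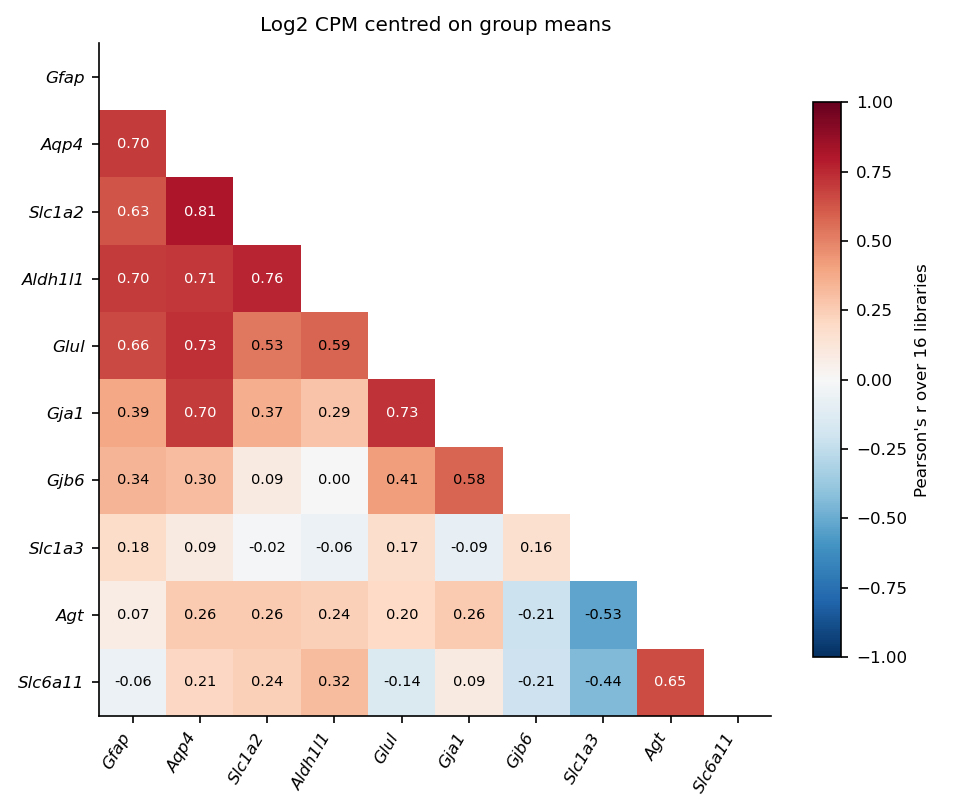
Pearson's r of log2 CPM, centred on group means, between each pair of the 10 astrocyte genes over 16 libraries, on a colour scale of -1 to 1. The highest value is 0.81 for Slc1a2 and Aqp4 and the lowest is -0.53 for Slc1a3 and Agt, while Agt and Slc6a11 have 0.65.

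The tested genes that followed the 10 most closely by this measure, with the highest mean r over the 10, were Scd1 (0.52) and Scd2 (0.51), the genes of stearoyl-CoA desaturases, then Sema3g, Rlbp1, Bet1, Reep3, Tmbim1, Fblim1, Rsl1 and Gpm6b (0.49). Among the lowest were Vps35l (-0.52), Rasgrf1, Cenpt and Brd3os. The median of all tested genes outside the list was -0.01, and that of the 40 other astrocyte genes was 0.24, from which Lcat was highest (0.48). All points share library and dissection, so these values are a description only.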

How the data were processed

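RNA-seq of whole hypothalamus from 16 mice was analysed. Per the methods and the submitters' notes, paired reads were trimmed with cutadapt 1.8, aligned to the mouse transcriptome (GRCm38) with STAR 2.5.3a and quantified by the authors with RSEM 1.2.31; the notes also name HTSeq 0.9.1 and a second build (mm9), and the sources name different RNA and library kits. The expected counts deposited by the authors are unnormalized estimates per gene (4.85% of all values, zeros included, were not whole) and were rounded. The TPM values and transcript lengths (bp) deposited by the authors are those of RSEM, with TPM scaled by length and library. CPM were normalized by TMM. Names and positions are from GENCODE for GRCm38, and promoters from RefSeq.

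Genes over 1 CPM in at least 1 library were tested in 1 model of the 4 groups with the quasi-likelihood F test of edgeR 4.0.16 (R 4.3.3), adjusted by Benjamini-Hochberg over 15808 genes at 0.05; every adjusted p is from it unless another scale is named. TPM were tested with limma 3.58.1. Intervals are at 95%. The script was tested on simulated data. Named were all 10 genes, up to 4 of smallest p per list and all calls where a list had 5 or fewer. A few genes that this rule names are not reported here. The 10 genes, the lists and the tests were chosen with earlier results of these data known. Replicates were separate mice, and totals were 34888522 to 42326259 counts per library. Each gene had 1 estimate of spread, shared by the 4 groups.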

Additional observations from a re-analysis of the deposited data

Results flagged for a closer look

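Over the 40 sets of 4 libraries formed by 10 genes in 4 groups, 3 held a library far from the other 3 by Dixon's ratio, where chance gives about 1 in 20. Gfap had 318 CPM in WT ZT13 replicate 1, against 212, 226 and 227 CPM in the other mice of the group. Aqp4 had 218 CPM in the same library, against 158, 163 and 167 CPM in the others. Agt had 263 CPM in WT ZT13 replicate 3, against 279, 279 and 280.4 CPM in the others.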

How the results depend on the processing

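Of 2000 single values of the 10 genes under the alternatives, 1952 kept their side of the threshold, 29 lost a call and 19 gained one. Of the 1952, 1874 also kept their direction and 78 changed sign, all of them uncalled; 0 called values changed sign. The number of the 10 genes that passed by time was 3 in each genotype and over both. It was 1 in ASIC1a-/- and 1 in WT mice with log2(TPM + 1), with log2(TPM + 0.1) and with an adjusted p under 0.005, and Glul was the gene left. With 1 library left out it ranged from 2 to 4 in ASIC1a-/- mice, from 1 to 5 in WT mice and from 3 to 5 over both, and by genotype and for the interaction it stayed at 0. Without 3 libraries that stood apart, chosen after the data were seen, it was 6 in WT mice and 6 over both genotypes, with Aqp4, Slc1a2 and Gjb6 added. The shares of all tested genes that passed in the fits with libraries left out are not given here. These counts are thus not read as particular to the 10 genes. Ranked by CPM in place of TPM, 1 of the 10 genes kept its rank.

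Without a filter on low counts, Slc6a11 had adjusted p = 0.0728 in ASIC1a-/- and 0.101 in WT mice. With only the 8 libraries of WT mice, Slc6a11 had adjusted p = 0.0545, and Gjb6 passed (0.14, adjusted p = 0.00774). With the replicate number as a block, 3 of the 10 genes passed by time in ASIC1a-/-, in WT mice and over both, and 0 by genotype. The replicate numbers gave no clear sign of pairing the samples. Same-numbered mice of different groups had r from -0.32 to 0.22, over 0.1 in 4 of 24 pairs, and 5 of 16 libraries correlated best with their own number. Such correlations cannot exclude a pairing. The causes of these differences were not tested. The intervals for Gfap, Aqp4 and Gjb6 rest on 1 estimate of spread per gene, shared by the 4 groups. They do not measure the spread of only the mice compared. For Gjb6 the SD was 9.46% and 12.3% of the mean CPM in ASIC1a-/- mice at ZT13 and ZT1. In WT mice it was 1.48% and 1.99%.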
